A study of Mus musculus with 12 samples.

Results

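The genes of ubiquitin ligases, of the enzymes that feed them and of deubiquitinases were examined in maps of small RNAs joined to their target RNAs in adult mouse forebrain. Members were all genes whose symbol begins with Usp and a digit, Ube1 to Ube4, Ubr1 to Ubr7, Fbxl, Fbxo, Fbxw, Herc, Hecw, Hectd, Nedd4, Huwe1 or Cul and a digit. The rule used symbols alone and found 146 members among the 11356 genes with a peak in any list. RefSeq (GRCm38.p6) holds 204 protein-coding symbols of this form, of which 144 had a peak in some list. The 60 without one include 18 Fbxw genes and 5 Usp17l genes. Usp6nl, Usp39 and Ube2d-ps, all members caught by the pattern, are not enzymes or subunits of the ubiquitin cascade: Usp6nl is a Rab GTPase-activating protein, Usp39 a splicing factor and Ube2d-ps a pseudogene.

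In the assay, Argonaute 2 (Ago2), the protein that holds a microRNA (miRNA), was cross-linked to RNA in the tissue with 3 rounds of ultraviolet light and precipitated. The miRNA was then ligated to the RNA it lay on, so that a chimeric read names both. The mice were C57BL/6. The 12 libraries came from 3 precipitations: anti-myc on tagged Ago2 of excitatory neurons (3 libraries), anti-Ago2 on whole forebrain (7 libraries), and control immunoglobulin G (IgG, 2 libraries). Tagged Ago2 was expressed from a conditional ROSA26 allele (CAG-GFP/Eif2c2) through Camk2a-Cre/ERT2, a Cre active in excitatory forebrain neurons. Mice received 2 mg tamoxifen intraperitoneally on each of 5 days, and tissue was taken 14 to 21 days later, when they were 10 to 12 weeks old. Since all 12 libraries have this treatment in their labels, it is unclear whether mice used for anti-Ago2 and IgG had the tagged allele. Peaks of chimeric reads were deposited as 4 lists, each called over pooled libraries: excitatory neurons ("excitatory", 3 libraries), forebrain libraries numbered 5 to 7 with anti-Ago2 ("reps 5-7"), those numbered 1 to 4 ("reps 1-4") and IgG. A peak belongs to 1 small RNA name, so several small RNAs at a place give several peaks. With libraries pooled, no spread between animals can be given, and every test below compares lists, or genes within a list, and covers counting error only.

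Ubiquitin is a small protein attached to other proteins by a cascade. An E1 enzyme activates it, an E2 enzyme carries it, and an E3 ligase chooses the substrate. HECT ligases (Herc, Hecw, Hectd, Nedd4, Huwe1, Ube3) take ubiquitin onto themselves before passing it on, whereas cullins are scaffolds that hold a ligase module and a substrate receptor such as an F-box protein (Fbxl, Fbxo, Fbxw). Ubr proteins recognise destabilising ends of proteins (N-recognins), Ube4 proteins are U-box ligases that extend chains, and Usp proteins cut ubiquitin off again. In neurons this system sets the lifetime and traffic of receptors and synaptic proteins, and loss of maternal UBE3A causes Angelman syndrome in humans. A miRNA finds its targets mainly through its seed, bases 2 to 8 from its 5′ end, and classically lowers the stability and translation of RNAs it pairs with in the 3′ untranslated region (3′ UTR).

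The miRNAs below recur in the member peaks that follow, and are shown so that those which share a seed can be recognised. Sequences are from RefSeq (GRCm38.p6), 5′ to 3′, with the seed in capitals. Of 159 small RNA names on members in the reps 1-4 list, 134 were in the RefSeq table.
miR-9-5p: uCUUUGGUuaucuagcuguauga
miR-26a-5p: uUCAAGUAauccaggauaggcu
miR-128-3p: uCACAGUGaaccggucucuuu
let-7a-5p: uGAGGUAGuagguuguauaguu
let-7c-5p: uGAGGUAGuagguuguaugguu
let-7e-5p: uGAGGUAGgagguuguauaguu
miR-29a-3p: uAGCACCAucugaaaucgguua
miR-29b-3p: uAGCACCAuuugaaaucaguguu
miR-30a-5p: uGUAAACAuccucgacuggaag
miR-30c-5p: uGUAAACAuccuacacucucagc
miR-30e-5p: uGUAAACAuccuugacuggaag
miR-181a-5p: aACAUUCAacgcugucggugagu
miR-137-3p: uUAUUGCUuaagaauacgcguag
miR-24-3p: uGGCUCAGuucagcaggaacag
The let-7 names share 1 seed, as do the miR-29 names and the miR-30 names shown, and differ only outside it. Seed matches in the target RNAs were not analysed here.

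Members took about 1% of the peaks in the excitatory, reps 5-7 and reps 1-4 lists. The excitatory list held 8 member peaks on 7 genes among 766 peaks, or 1.04% (95% Wilson interval 0.530 to 2.05%). The reps 5-7 list held 36 on 21 genes among 3611 peaks, or 0.997% (0.721 to 1.38%), and the reps 1-4 list held 3346 on all 146 members among 246180 peaks, or 1.36% (1.31 to 1.41%). The IgG list had 0 member peaks of 10, which allows a share of up to 30%, so the background over members could not be measured at this depth. Among peaks in coding sequence (CDS) and UTRs, members made up 1.37% (0.698 to 2.69%) of the excitatory list, 1.30% (0.918 to 1.84%) of the reps 5-7 list and 1.96% (1.87 to 2.04%) of the reps 1-4 list, the last above the reps 5-7 interval. With scores summed in place of peaks, they held 0.507%, 0.5% and 1.04% of these lists, and among the 3611 top-scoring reps 1-4 peaks they held 0.748%. Of those 3611 peaks, 2430 were outside ribosomal RNA, and all 27 member peaks were among these. The deposited peak score, a whole number that starts at 3, had a median of 5 over excitatory member peaks, 4 over reps 5-7 member peaks and 4 over reps 1-4 member peaks, against 4 over all peaks of each of these lists. The highest member score was 7 in the excitatory list, 9 in the reps 5-7 list and 236 in the reps 1-4 list.

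In the labelled cell type, Camk2a was the only one of 6 excitatory neuron markers with peaks in the excitatory list (14 peaks), and the other 5 had 0. Of the other marker lists, 6 genes each, oligodendrocyte markers had 4 peaks there and microglia markers had 1. Inhibitory neuron, astrocyte and vascular markers had 0. In the reps 5-7 list the counts were 25 for excitatory neuron, 35 for astrocyte, 13 for oligodendrocyte, 4 for inhibitory neuron, 2 for microglia and 0 for vascular markers. The excitatory list is thus marked by a single gene, whose promoter also drives the Cre, and it is called by its label here.

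The members in the reps 1-4 list span E2 enzymes, ligases, ligase subunits and deubiquitinases, and no E1 enzyme is among them. HECT ligases had the most peaks, 953 on 16 genes, followed by F-box proteins with 734 on 43, deubiquitinases with 654 on 39 and E2 enzymes with 571 on 29. N-recognins had 256 on 6 genes, cullins 100 on 8 and U-box ligases 70 on 2, and the 3 genes outside the cascade had 8. The median HECT ligase had 43 peaks, the median N-recognin 32.5, the median deubiquitinase 12 and the median F-box protein 9. Over all members the median was 12 peaks, against 5 over all 11352 genes of the list. At least 10 peaks were present on 85 members (58.2%), against 36.1% of all genes. RNA levels were not measured in these files, and in whole tissue more cells of a type and more RNA per cell cannot be told apart.

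The small lists covered fewer roles. In the excitatory list, F-box proteins had 3 peaks, HECT ligases 2, deubiquitinases 2 and E2 enzymes 1. In the reps 5-7 list, HECT ligases had 15, deubiquitinases 7, F-box proteins 5, N-recognins 4, E2 enzymes 3 and U-box ligases 2. Cullins had 0 in both lists, which allows 0.392% of the excitatory list and 0.0831% of the reps 5-7 list.

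**Figure D1:**
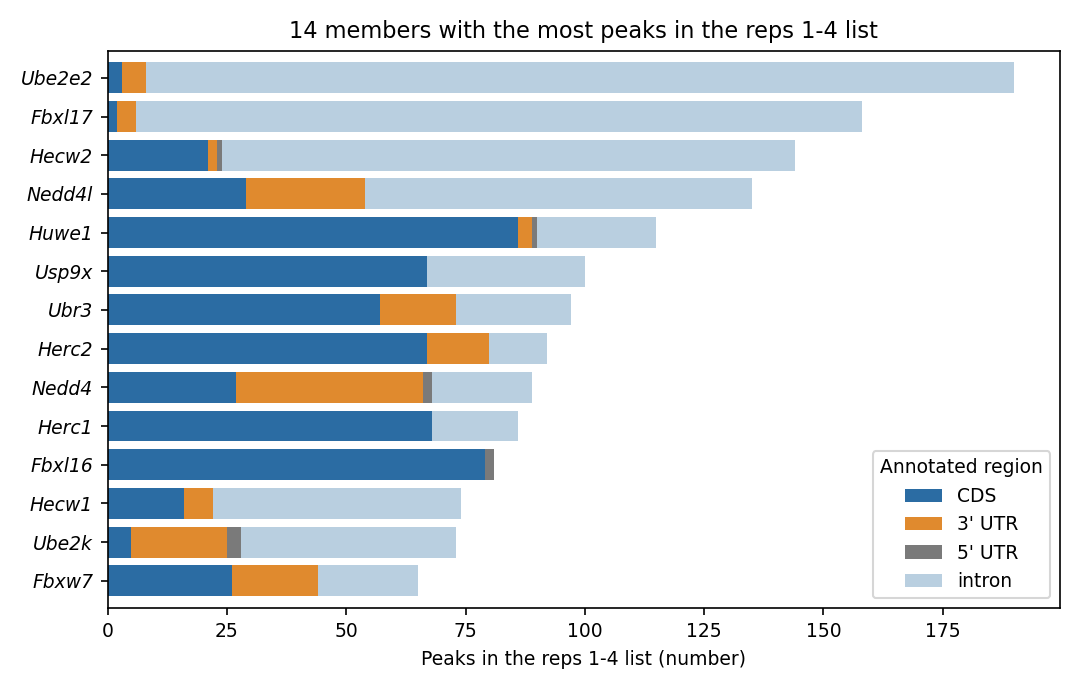
Peaks on each of the 14 members with the most peaks in the reps 1-4 list (x axis, number of peaks, stacked by annotated region; y axis, genes). Ube2e2 leads with 190 peaks, nearly all in introns, whereas the 81 peaks of Fbxl16 lie in CDS and 5' UTR.

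Intron peaks were gathered on a few long genes. The E2 enzyme gene Ube2e2, annotated over 320722 bases, had 190 peaks, of which 182 were in introns. Fbxl17, an F-box gene of 458236 bases, had 152 intron peaks of 158, and the HECT ligase gene Hecw2 had 120 of 144. Nedd4l, a HECT ligase known for ubiquitinating ion channels, had 81 intron peaks of 135, and Hecw1 had 52 of 74. These 5 genes held 587 of the 1310 member intron peaks (44.8%). Across the 146 members, gene length and intron peaks had a Spearman rho of 0.668, and gene length and CDS and UTR peaks one of 0.415. Both are descriptions over genes that share the same libraries.

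CDS and UTR peaks were spread more widely, with 10 genes holding 666 (32.7%) of 2035. The giant HECT ligase Huwe1 had 90, the orphan F-box gene Fbxl16 had 81 and Herc2, a ligase that binds UBE3A, had 80. Ubr3 had 73, Nedd4 and Herc1 each had 68, and Usp9x, a deubiquitinase needed for neural development, had 67. Nedd4l had 54, Fbxw7, the substrate receptor for cyclin E, Myc and Notch, had 44, and the chain-extending ligase Ube4b had 41. Genes named for their place in brain biology also had peaks at lower numbers: Ube3a had 30 CDS and UTR peaks, the E2 enzyme Ube2k 28 and the cullin Cul3 12.

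Member peaks lay in coding sequence more often than the peaks of each list as a whole. CDS held 75.0% of member peaks in the excitatory list (6 of 8, interval 40.9 to 92.9%), against 45.8% of all its peaks, a value within that interval. In the reps 5-7 list it held 52.8% (37.0 to 68.0%) of member peaks, against 31.2% of all. In the reps 1-4 list it held 42.3% (40.6 to 43.9%) of member peaks, against 22.6% of all. Part of this contrast is built in, since a member peak always lies on a named gene. In the reps 1-4 list, 10.2% of all peaks were in none of CDS, UTRs and introns. In the excitatory list 153 of 766 peaks were in none of them, and in the reps 5-7 list 1010 of 3611. The CDS shares of those lists were not recomputed without such peaks. A CDS excess on members over like peaks was therefore not tested there. Among CDS and UTR peaks alone, the 3′ UTR held 25% of member peaks in the excitatory list (2 of 8), against 37.1% of all. It held 38.7% (23.7 to 56.2%) in the reps 5-7 list, against 50.9% of all, a value within that interval. In the reps 1-4 list it held 29.4% (27.5 to 31.5%), against 44.2% of all. The roles differed in this share in the reps 1-4 list. N-recognins had 15.3% of CDS and UTR peaks in the 3′ UTR, HECT ligases 22.8%, cullins 23.9%, U-box ligases 27.4%, deubiquitinases 29.0% and F-box proteins 35.9%. E2 enzymes had 50.2% (43.5 to 57%).

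**Figure D2:**
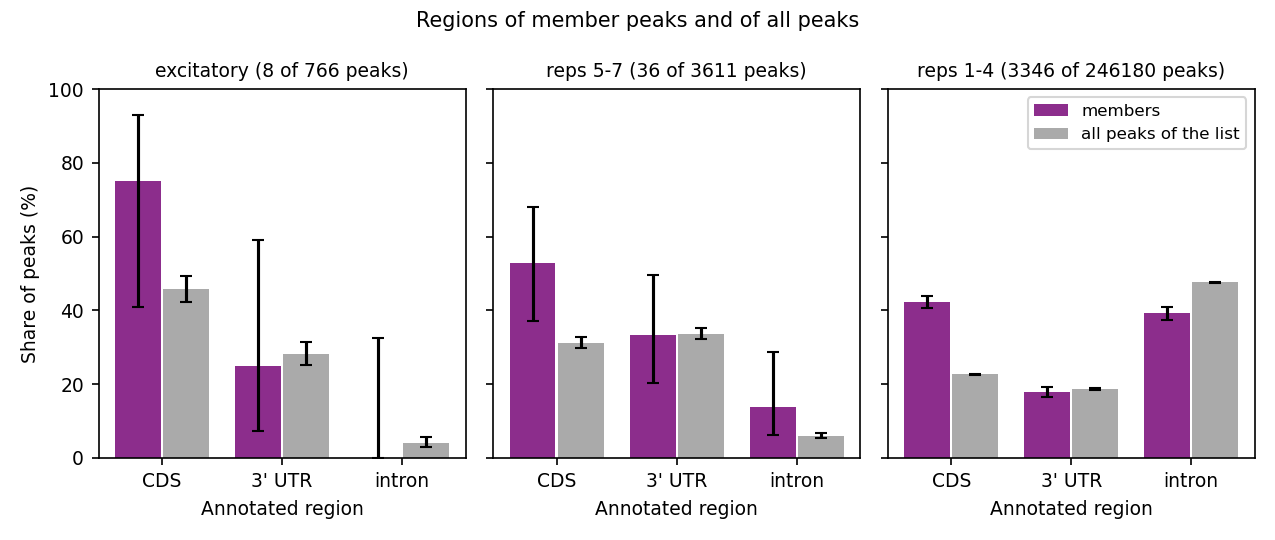
Share of peaks (y axis, %) in CDS, 3' UTR and introns (x axis) for members (purple, left) and all peaks of the list (grey, right) in the excitatory, reps 5-7 and reps 1-4 lists, with 95% Wilson intervals. The CDS share was higher for members in all 3 lists, at 75.0%, 52.8% and 42.3% against 45.8%, 31.2% and 22.6%. The shares of all peaks also count peaks outside CDS, UTRs and introns, of which members had 0, 0 and 1.

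The 3′ UTR share was tested gene by gene in the reps 1-4 list, as a comparison added after the shares above were seen. Each of the 3095 genes with at least 10 CDS and UTR peaks was set against all other genes with Fisher's exact test, two-sided, and Benjamini-Hochberg adjustment. Of 68 members tested, 27 (39.7%) had a lower 3′ UTR share at an adjusted p under 0.05, against 23.0% of all genes tested. A higher share was found for 7 (10.3%), against 24.1% of all genes tested, and 34 were not called. The median share was 29.3% over these members and 44.9% over all genes tested. Among the members called lower were 7 of 13 HECT ligases, 8 of 20 deubiquitinases, 4 of 5 N-recognins, 3 of 15 F-box proteins, 3 of 9 E2 enzymes, 1 of 4 cullins and 1 of 2 U-box ligases. The lengths of CDS and 3′ UTR were not analysed here, and their part in these shares was not tested. Peaks of several small RNAs at 1 place count separately, and with overlapping peaks merged into sites 14 of 48 members tested (29.2%) were called lower, against 12.5% of 2163 genes, and 1 (2.08%) higher, against 13.4%.

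The members with the smallest adjusted p-values had lower shares. Fbxl16 had 0 of 81 CDS and UTR peaks in the 3′ UTR (adjusted p = 7.39e-19 by Fisher's exact test). Huwe1 had 3 of 90 (adjusted p = 1.71e-16, same exact test). With overlapping peaks merged into sites, the adjusted p was 1.88e-05 for Fbxl16 and 1.58e-06 for Huwe1 by the same exact test. Herc1, whose mutation causes Purkinje cell degeneration in the mouse, had 0 of 68, and Usp9x had 0 of 67. The 10 members tested that had no 3′ UTR peak at all also include the SCF-linked E2 enzyme Ube2r2 (0 of 16), the SCF scaffold Cul1 (0 of 13), the deubiquitinases Usp11 (0 of 20), Usp5 (0 of 11) and Usp8 (0 of 12), and Ube2m, the E2 enzyme that carries NEDD8 to cullins (0 of 11). Ube2r2, Usp5, Usp8 and Ube2m had too few sites to be retested once overlapping peaks were merged. Herc2 was called lower with 13 of 80, and the giant N-recognin Ubr4 with 1 of 32. Usp22, the deubiquitinase of the SAGA complex, had 1 of 23.

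The members called higher were 3 E2 enzymes, 2 deubiquitinases and 2 F-box proteins. Ube2g1 had 10 of 11 CDS and UTR peaks in the 3′ UTR, Ube2k 20 of 28 and Ube2d2a 9 of 11. Usp31 had 21 of 27 and Usp32 had 21 of 30. Fbxl18 had 13 of 15 and Fbxo41 had 10 of 13 (adjusted p = 0.0496 by Fisher's exact test, the weakest of the 7). With overlapping peaks merged, Usp31 stayed called, Usp32 (adjusted p = 0.526), Ube2k (0.0550) and Fbxl18 (0.0549) were not called by the same exact test, and Ube2g1, Ube2d2a and Fbxo41 had too few sites. Nedd4 had 39 of 68 (57.4%) and was not called (adjusted p = 0.0722, exact test), nor was Ube3a with 13 of 30.

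**Figure D3:**
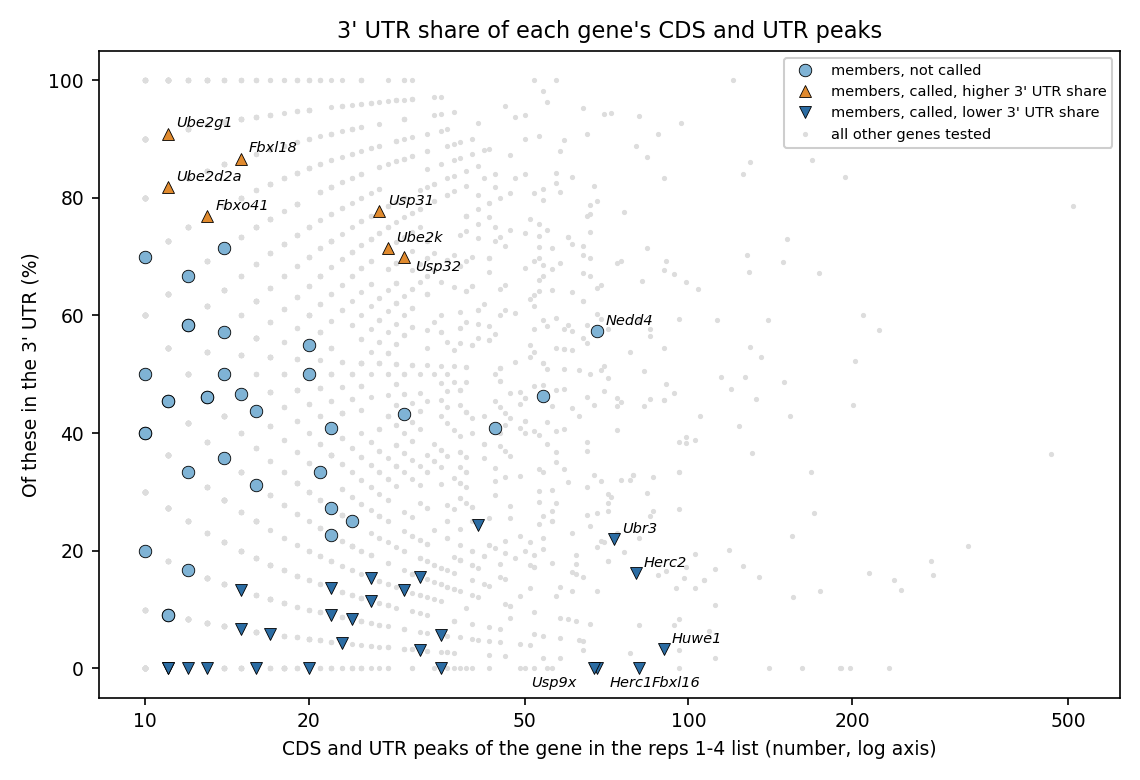
Each point is a gene of the reps 1-4 list with at least 10 CDS and UTR peaks (x axis, their number, log axis), placed by the share of them in the 3' UTR (y axis, %). Members called lower (dark downward triangles, 27) lie at the bottom, including Fbxl16, Herc1 and Usp9x at 0, and those called higher (orange upward triangles, 7) at 70.0% or above.

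MiR-124-3p, the most abundant neuronal miRNA, led the member peaks in the excitatory, reps 5-7 and reps 1-4 lists. It held 75.0% of excitatory member peaks (6 of 8, interval 40.9 to 92.9%), against 37.5% of all peaks of that list. It held 44.4% (16 of 36, 29.5 to 60.4%) of reps 5-7 member peaks, against 28.2% of all, and 27.8% (929 of 3346, 26.3 to 29.3%) of reps 1-4 member peaks, against 29.3% of all. Among the 3611 top-scoring reps 1-4 peaks, as many as reps 5-7 holds, it held 55.6% of member peaks (15 of 27), against 28.9% of all. All 27 member peaks were outside ribosomal RNA, and of all top-scoring peaks outside it miR-124-3p held 37.2% (903 of 2430). No excitatory or reps 5-7 member peak lay outside CDS, UTRs and introns. Of all peaks of these lists, 153 of 766 and 1010 of 3611 did. The miR-124-3p shares of these lists were not recomputed without such peaks. A miR-124-3p excess on members over like peaks was therefore not tested there. In the reps 1-4 list, 131 of the 146 members had a miR-124-3p peak. Its share differed by region: 40.3% of member intron peaks (37.7% of all intron peaks), 23.4% of member 3′ UTR peaks (22.7% of all) and 18.1% of member CDS peaks (19.7% of all).

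Grouped by shared seed, the let-7 names came next in the reps 1-4 list, with 327 member peaks on 60 genes (9.77% of member peaks, against 8.81% of all peaks). MiR-9-5p had 318 (9.50% against 10.7%), the miR-29 names 267 (7.98% against 7.94%), the miR-26 names 242 (7.23% against 7.08%) and miR-128-3p 186 (5.56% against 5.24%). The names with the miR-30c-5p seed in the RefSeq table had 104 (3.11% against 2.18%). With miR-30b-5p and miR-30d-5p added by name, miR-30 had 138 member peaks (4.12%), against 2.84% of all peaks outside ribosomal RNA. Let-7 peaks on members lay in CDS in 248 cases (75.8%), against 44.6% of all let-7 peaks, and in the 3′ UTR in 29 (8.87%), against 22.9% of all. These CDS peaks were concentrated: with overlapping let-7 peaks merged, members had 83 CDS sites of 141 (58.9%), against 37.0% of all let-7 sites. MiR-30 lay in CDS in 45.7% of member peaks, against 18.9% of all miR-30 peaks, and miR-29 in 55.1%, against 27.1%. With overlapping peaks merged, these shares were 39.5% against 15.4% for miR-30 and 49.4% against 23.0% for miR-29. Over all small RNAs, CDS held 42.3% of member peaks, against 22.6% of all, so a higher CDS share is not particular to these families.

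**Figure D4:**
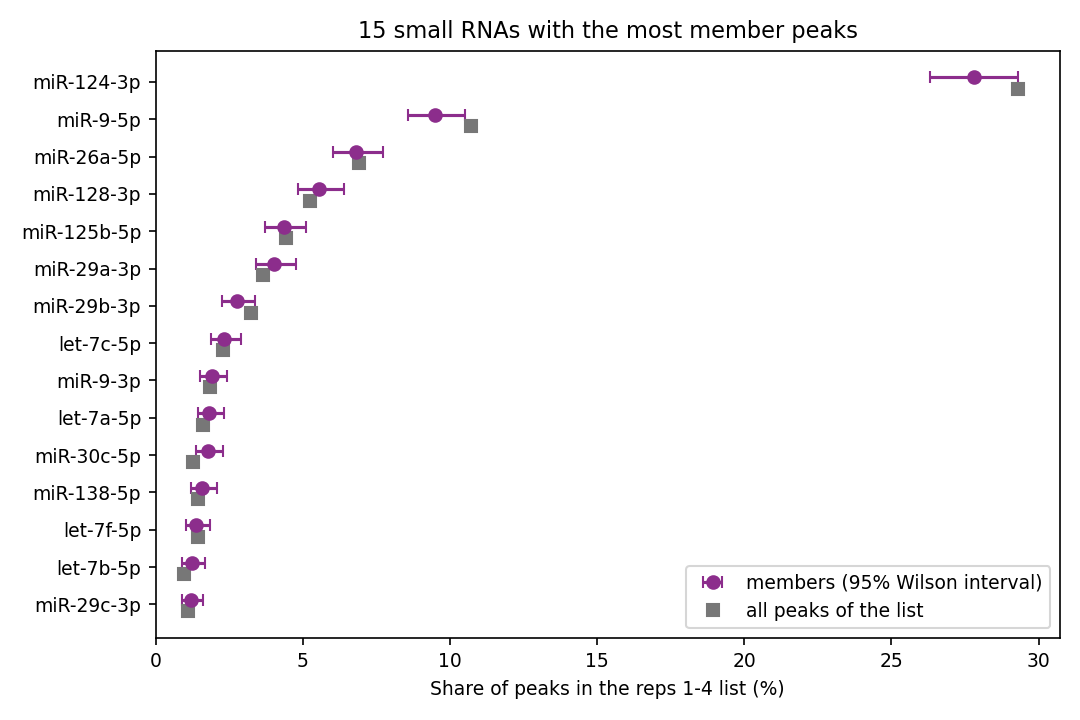
Share of peaks (x axis, %) of the 15 small RNAs with the most member peaks in the reps 1-4 list, for members (circles, with 95% Wilson intervals) and for all peaks of the list (squares). The 2 shares lie close together for most names, as for miR-124-3p at 27.8% and 29.3%, while miR-30c-5p stands at 1.76% and 1.27%.

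No member stood out for a particular small RNA when pairs were tested one at a time, in a comparison also added after seeing the data. For each gene and small RNA with at least 1 expected CDS or UTR peak in the reps 1-4 list, the small RNA's share of the gene's peaks was set against its share in all other genes (two-sided Fisher's exact test with Benjamini-Hochberg adjustment over 17488 pairs). Of 374 member pairs on 102 genes, 0 were called higher, against 0.0743% of all pairs, and 0 lower, against 0.0572%. A count of 0 was not called lower even for miR-128-3p on Fbxl16 (0 of 81, 4.11 expected, adjusted p = 0.972, exact test). The 0 lower calls therefore say nothing of pairs with fewer expected peaks. At an unadjusted p under 0.05 there were 21 member pairs (5.61%), against 831 of all pairs (4.75%). The member pair with the smallest p was miR-124-3p on Ubr4, with 15 of 32 peaks (adjusted p = 0.397, exact test). MiR-29a-3p on Fbxw7 held 7 of 44 (adjusted p = 0.455, exact test).

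With names of 1 seed merged, 10 member pairs passed of 443 tested (2.26%), against 1.30% of all pairs, 7 of them let-7 pairs. Let-7 names held 10 of 11 CDS and UTR peaks on Ube2m, 27 of 90 on Huwe1, 22 of 68 on Herc1 and 0 of 73 on Ubr3 (14.1% of peaks on all other genes). MiR-181 names held 7 of 67 on Usp9x, miR-30 names 8 of 54 on Nedd4l and miR-29 names 12 of 44 on Fbxw7. When overlapping peaks of 1 seed were then counted once, 0 of 325 member pairs were called by the same exact test, against 0.0921% of all pairs.

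Such stacks were counted directly by merging overlapping peaks of a strand into sites. Members had 2504 sites in the reps 1-4 list, of which 396 (15.8%) held at least 2 small RNA names, against 14.7% of all sites. At least 5 names were present at 65 member sites (2.60%), against 1.79% of all sites. The densest lay in the CDS of Fbxl16, at chr17:25817686-25817788 (mm10, plus strand), where 15 names met within 103 bases with a summed score of 221. They were let-7, miR-29, miR-124-3p, miR-125b-5p, miR-16-5p and other names. A second Fbxl16 CDS site at chr17:25817959-25818028 held 14 names, again let-7, miR-29 and miR-124-3p. The 81 peaks of Fbxl16 thus fell on 25 sites. Huwe1 had a site of 13 names at chrX:151860669-151860697, mostly let-7, and Herc1 one of 12 names at chr9:66451140-66451188. In 3′ UTRs, the densest member sites held 11 names each. That of Fbxw7 at chr3:84978269-84978375 joined miR-29, miR-15/16, miR-101a-3p and miR-26a-5p, and that of Herc2 at chr7:56231267-56231397 joined miR-30 with miR-103/107 and miR-16-5p. A site of 8 let-7 names and miR-124-3p at chr7:13036234-13036258 held 9 of the 12 peaks of Ube2m.

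The peaks with the highest scores in the reps 1-4 list were led by miR-124-3p. Fbxl16 held the top member peak, miR-124-3p in CDS at chr17:25818144-25818149 with a score of 236, and another at chr17:25816465-25816473 with 168. Hectd2, a HECT ligase, had a miR-26a-5p peak in its 3′ UTR (chr19:36618848-36618861) with a score of 203. MiR-124-3p peaks in CDS reached 178 on Herc3, 169 on Ube2r2, 116 on Ubr4 and 107 on Herc1. Other miRNAs led on some members: miR-9-5p reached 130 on Usp22 and miR-137-3p 94 on Herc2, both in CDS. In 3′ UTRs, Nedd4 had miR-124-3p at 123 and miR-30c-5p at 111. Scores of at least 10 were found for 444 member peaks (13.3%), against 11.8% of all peaks outside ribosomal RNA. Scores of at least 100 were found for 11 member peaks (0.329%), against 0.334% of all peaks outside ribosomal RNA.

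All 8 excitatory member peaks recurred in the reps 1-4 list, as peaks of the same small RNA sharing 1 base or more of a strand (100%, interval 67.6 to 100%), against 93.1% of all excitatory peaks. The reps 5-7 list held 5 of the 8 (62.5%), against 55.5% of all excitatory peaks. Of the 36 reps 5-7 member peaks, 32 (88.9%) recurred in the reps 1-4 list, against 87.5% of all. When each peak had to cover 50% of the other, 50% of excitatory member peaks recurred in the reps 1-4 list, against 56.5% of all, and 33.3% of reps 5-7 member peaks, against 45.3% of all. Most of the recurring peaks scored above the median member peak in the deep list. Recurring peaks of all genes were not examined in this way, so this cannot be read as a trait of members. Their reps 1-4 scores had a median of 88 (7 to 236) for the excitatory peaks and 29.5 (4 to 178) for the reps 5-7 peaks, against 4 over all member peaks.

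The excitatory member peaks can be given in full. MiR-124-3p on Fbxl16 CDS scored 7 at 1 site, against 4 in reps 5-7 and 168 in reps 1-4, and 6 at the other, against 6 and 236. On the CDS of Ube2r2 it scored 5, against 5 in reps 5-7 and 169 in reps 1-4. In the 3′ UTR of Nedd4 it scored 5, against 8 and 123. On the CDS of Usp9x it scored 3, against 3 and 18. These 5 peaks, all of miR-124-3p, were the excitatory member peaks that overlapped a peak of the same name in both other lists. The other 3 were absent from the reps 5-7 list: let-7c-5p in the 3′ UTR of Usp32 scored 7, against 53 in reps 1-4, miR-29a-3p on the CDS of Fbxw7 scored 3, against 7, and miR-124-3p on the CDS of Huwe1 scored 3, against 25. Scores are not scaled to library size, so their levels cannot be compared between lists.

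Of the 4 reps 5-7 member peaks without a match, 3 lay beside a reps 1-4 peak of the same miRNA. MiR-124-3p on Fbxl16 lay 0 bases away from the peak of score 236, miR-124-3p in an intron of Nedd4l 4 bases from a peak of score 3, and miR-26a-5p in the 3′ UTR of Nedd4 6 bases from a peak of score 48. The fourth, miR-218-5p in the 3′ UTR of Usp32 with a score of 3, had no peak of that miRNA on the gene in the reps 1-4 list. Member peaks found in the reps 5-7 list but outside the excitatory list included Usp22 miR-124-3p in CDS (scores 6 and 4 at different sites), Usp2 miR-9-5p (5 and 4), Ube2r2 miR-24-3p (6), Usp24 let-7c-5p (6) and Herc3 miR-124-3p (6). Nedd4l had miR-30c-5p in CDS (5) and in an intron (4).

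The share of peaks on each gene was then set against its share of another list by a two-sided Fisher's exact test, with Benjamini-Hochberg adjustment over every gene with at least 10 peaks in both lists together. The excitatory and reps 5-7 lists are both small, and 0 members reached 10 peaks. Of the 32 genes tested there, 7 were called (21.9%). Between the excitatory and reps 1-4 lists, 0 of 85 members were called, against 11 of 4103 genes (0.268%). One member was under an unadjusted p of 0.05, Fbxl16, with 2 peaks (0.261% of the excitatory list), against 81 (0.0329% of the reps 1-4 list), an odds ratio of 7.95 (p = 0.0277, adjusted p = 1.00, exact test). The other members included 78 with 0 excitatory peaks, and at this depth a count of 0 could not be called lower for any of them, Ube2e2 with 190 reps 1-4 peaks included.

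Between the reps 5-7 and reps 1-4 lists, 1 of 85 members was called (1.33% of all 4132 genes were). Nedd4 had 7 of 3611 peaks (0.194%) in reps 5-7, against 89 of 246180 (0.0362%) in reps 1-4, an odds ratio of 5.37 (adjusted p = 0.0458, exact test). Herc3 (3 against 45 peaks, adjusted p = 0.582, exact test) and Ube2r2 (2 against 18, adjusted p = 0.595, exact test) were under an unadjusted p of 0.05 alone. The Nedd4 call was lost under 5 of 7 alternatives, among them merged sites (odds ratio 6.36, adjusted p = 0.0616, exact test), CDS and UTR peaks alone (4.50, adjusted p = 0.362, exact test) and equal list sizes (1.75, adjusted p = 1.00, exact test).

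Nedd4, the ligase that ubiquitinates AMPA-type glutamate receptors and growth factor receptors, had its 3′ UTR peaks in all 3 lists at some of the same places. Its annotated 3′ UTR runs over 2726 bases (chr9:72747127-72749852, mm10, plus strand). The excitatory list had 1 peak there, miR-124-3p with a score of 5, at 550 to 563 bases from the start of the 3′ UTR. The reps 5-7 list had 7 peaks. MiR-124-3p lay at 543 to 556 bases (score 8) and miR-26a-5p next to it at 559 to 568 (6). MiR-30c-5p, miR-30e-5p and miR-30a-5p, which share a seed, overlapped between 939 and 962 bases with scores of 9, 7 and 5. The reps 1-4 list had 39 peaks of 23 small RNA names, 36 of them starting within the first 1200 bases. Its miR-124-3p peak at 551 bases scored 123, and 6 miR-30 names met at 940 to 964 bases with a summed score of 311. MiR-30c-5p scored 111, miR-30e-5p 71, miR-30a-5p 66, miR-30d-5p 35 and miR-30b-5p 25. MiR-26a-5p at 575 bases scored 48 and miR-9-5p at 1027 bases scored 27. The 4 highest of these scores were each at a peak that overlapped one of the same name in reps 5-7, whereas the miR-26a-5p peaks of the 2 lists lay 6 bases apart.

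**Figure D5:**
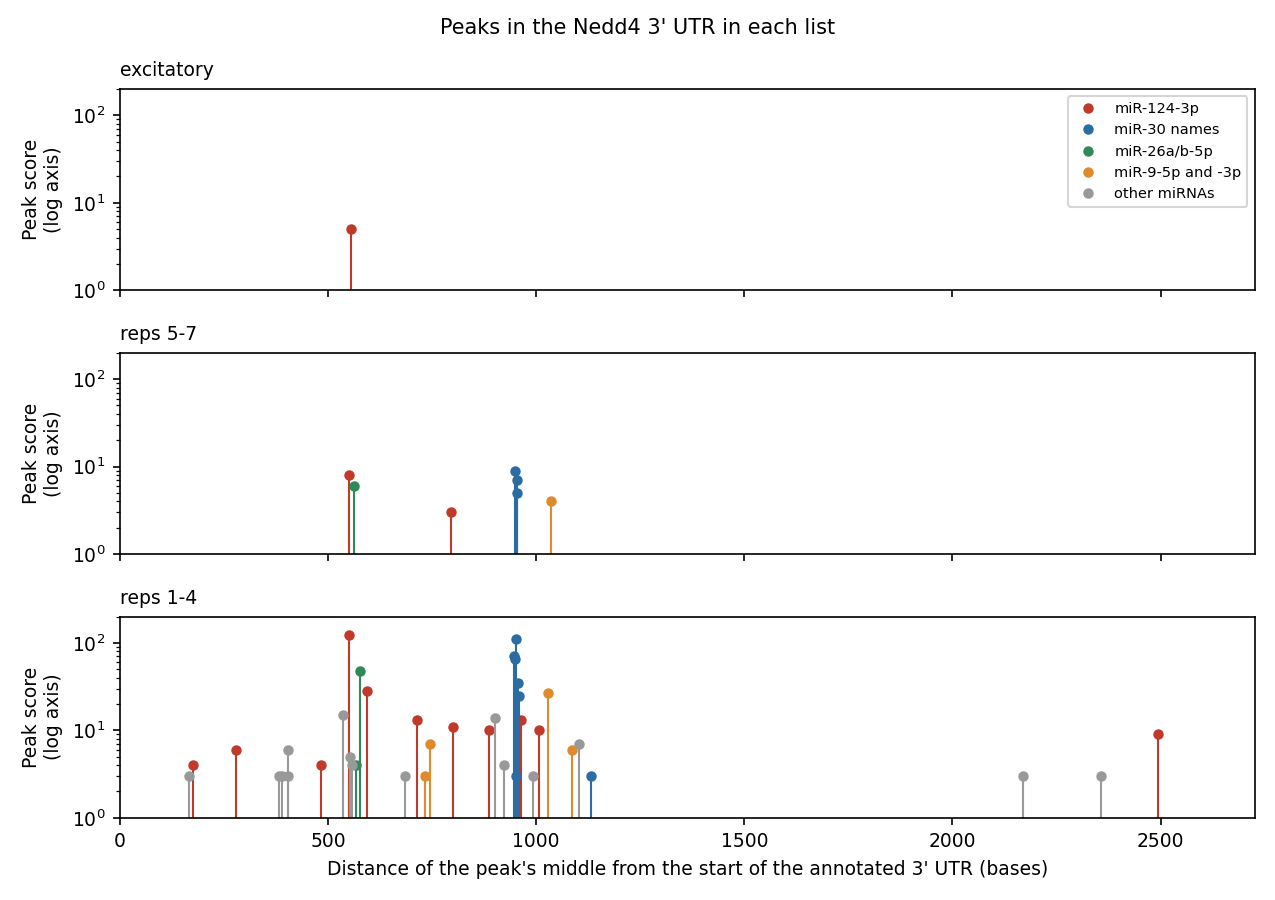
Peaks in the Nedd4 3' UTR in the excitatory, reps 5-7 and reps 1-4 lists, by distance of the peak's middle from the start of the 3' UTR (x axis, bases) and peak score (y axis, log axis), coloured by miRNA. The miR-124-3p peak near 551 bases is present in all 3 panels, and the miR-30 names gather at 939 to 964 bases in the reps 5-7 and reps 1-4 panels.

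Genes of the same pathway outside the rule were counted for context. Of 36 other ligases and adaptors, 5 had a peak in the excitatory list, 9 in the reps 5-7 list and 34 in the reps 1-4 list, with 5, 16 and 953 peaks. Of 12 other deubiquitinases, 1, 4 and 12 had a peak, and of 40 proteasome subunits and shuttle proteins, 2, 6 and 36. Ubiquitin genes and E1 enzymes had 0 peaks in both small lists and 70 peaks on 4 of 6 genes in the reps 1-4 list. None was called against reps 1-4, where 42 had enough peaks, and none had enough peaks to be tested between the excitatory and reps 5-7 lists. In the 3′ UTR test, 11 of 32 were called lower and 8 higher, against 23.0% and 24.1% of all 3095 genes tested. Of reps 1-4 CDS and UTR peaks, the 3′ UTR held 13.6% on ubiquitin and E1 genes and 14.7% on proteasome and shuttle genes. It held 41.5% on other deubiquitinases and 46.8% on other ligases and adaptors, against 29.4% on members and 44.2% of all. Mib1, a RING ligase of the Notch pathway, had 106 of 126 CDS and UTR peaks in the 3′ UTR and the p53 regulator Mdm4 had 15 of 17. The E1 enzyme gene Uba1 had 3 of 45, and the giant ligases Mycbp2 and Birc6 had 6 of 81 and 2 of 51.

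Some members conjugate proteins other than ubiquitin, and they had few peaks. In the reps 1-4 list, Ube2m and Ube2f, which carry NEDD8, had 12 and 8 peaks, and Ube2l6, which carries ISG15, had 3. Usp6nl had 6 peaks, Usp39 had 1 and Ube2d-ps had 1.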

How the data were processed

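Per the file headers, the libraries of a group were pooled by the authors before peak calling on mm10 (also named in the submitters' processing notes) with miRBase mouse names, and a peak needed 3 reads and 2 libraries. Neither aligner nor caller is given in the sources used here. Each deposited value is a whole-number score per peak whose definition is not stated. It is not scaled to library size, and read depth per library was not given. The deposited annotation gives each peak 1 gene and 1 region. The summaries list the same 3 library numbers for reps 5-7 and excitatory neurons, and what the numbers mean is not stated. Lists were compared by numbers of peaks, with Fisher's exact test (SciPy 1.17.1), Benjamini-Hochberg adjustment, a minimum of 10 peaks per gene and a threshold of 0.05. Checks on simulated data drew peaks independently, unlike the stacked peaks of these lists, and no simulated list had the size of the excitatory list. They cannot show how the tests behave in those cases. Intervals are Wilson 95% intervals. They cover counting error only and treat peaks as independent, although peaks of several small RNA names can stack at 1 place. Reads were amplified without molecular identifiers, which the intervals do not account for. Replicates cannot be separated in pooled lists, so no spread between animals enters any p.

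Members, gene lists, tests and the rule for named genes were chosen with earlier results of these data known. The rule names members with an excitatory peak, those leading a list by peaks, regions or score, those passing a test, interactions found in all 3 lists, 10 brain genes, and those outside the ubiquitin system. Some genes that it names are not reported here. The tests of 3′ UTR share and of gene and small RNA pairs, with their alternatives, were chosen after seeing the data. Alternatives were another minimum of peaks, CDS and UTR peaks alone, peaks at or above the median score, equal list sizes, merged sites, peaks of ribosomal RNA (within 5000 bases of Gm42418 or so annotated) left out, genes outside the ubiquitin system left out, summed scores, stricter or looser overlap and merged seeds. Sequences came from RefSeq tables (GRCm38.p6), and figures were drawn with matplotlib 3.10.9.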

Additional observations from a re-analysis of the deposited data

How the results depend on the processing

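Between excitatory and reps 5-7, no member had enough peaks to be tested in the reported setting or in 6 of 7 alternatives, so the 0 members called there say nothing of stability. Between excitatory and reps 1-4, 0 members were called under the 6 alternatives that tested any (51 to 118 members), and equal list sizes tested 0. Between the reps 5-7 and reps 1-4 lists, 1 member (Nedd4) was called in the reported setting, and 0 were called with CDS and UTR peaks alone, when peaks under the median score were dropped, when reps 1-4 was reduced to as many top-scoring peaks as reps 5-7, with merged sites, and with at least 5 peaks per gene. The odds ratio of Nedd4 ranged between 1.75 (equal list sizes) and 6.59 (low scores dropped). Over all genes, calls numbered 0 (CDS and UTR alone) to 79 (merged sites) against 55 for reps 5-7 and reps 1-4, 3 to 12 against 11 for excitatory and reps 1-4, and 0 to 7 against 7 for excitatory and reps 5-7. With scores summed in place of peaks, members held 0.507% of the excitatory list, 0.5% of reps 5-7 and 1.04% of reps 1-4, and 0.748% of reps 1-4 reduced to its highest-scoring peaks. The 3′ UTR share of reps 1-4 member peaks was 32.1% with merged sites. The miR-124-3p share of reps 1-4 member peaks was 30.5% with summed scores and 55.6% among as many highest-scoring peaks as reps 5-7 holds. With a reciprocal overlap of 50%, recurrence in reps 1-4 was 50% for excitatory and 33.3% for reps 5-7 member peaks, against 56.5% and 45.3% of all peaks of these lists. For all of these the cause was not tested. In the 3′ UTR test, 14 members were called lower and 1 higher of 48 with merged sites, against 270 and 289 of 2163 genes. With at least 20 peaks, 19 were called lower (57.6%) and 3 higher (9.09%) of 33, against 417 (29.6%) and 423 (30%) of 1411 genes. In the reported setting 712 and 746 genes were called of 3095. Of the 34 members called, 26 could be retested with merged sites and 15 of them passed, 29 and 26 with low scores dropped, and 22 and 22 with at least 20 peaks, with 0 reversed. In the pair test, 10 member pairs were called with seeds merged, and 0 when their overlapping peaks were also counted once. All pairs called were 269 and 15, against 23, and 261 with peaks of all regions. No paired analysis was possible because replicates were pooled before calling, and leaving out a replicate was not possible for the same reason. Seed matches at member peaks were not run, because no genome was used here. The excitatory list, with 8 member peaks, limits every statement on that list.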
